A study of Mus musculus with 2 samples.

Results

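The cone and photoreceptor precursors of the e15.5 mouse eye cup were 329 cells of the control library and 473 cells of the mutant library, out of 9722 and 10708 cells that passed the filters. The members were chosen by their own counts: each had at least 200 genes and 2000 unique molecular identifiers (UMIs, 1 per captured transcript), at most 15% mitochondrial UMIs, and a UMI in 3 or more of Crx, Thrb, Rxrg, Gngt2, Pdc, Gnb3, Prdm1 and Rcvrn. Cells with any UMI of Pou4f2, Tfap2b, Lhx1 or Mlana, which mark ganglion, amacrine, horizontal and pigment cells, were kept out. Both libraries were made from single cells of 3 pooled eye cups with the 10x Genomics 3′ chemistry. The control was Myrf fl/fl, with loxP sites in the gene of the transcription factor MYRF. The mutant carried the same floxed allele together with Rx>cre, a transgene that expresses Cre recombinase in the early eye field, which gives rise to both neural retina and retinal pigment epithelium (RPE). The comparison asks how the photoreceptor lineage stood in an eye that had lost MYRF. There was 1 library per genotype, so no test between genotypes was possible, no p-value is given, and each interval in brackets is an exact 95% interval that covers counting error only.

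Photoreceptors arise from cycling retinal progenitors. A progenitor that leaves the cycle and turns on Otx2, a homeobox gene, can enter the photoreceptor lineage, where the related homeobox factor CRX switches on phototransduction and structural genes. In the mouse, cones are born before birth, ahead of most rods. Cone identity depends on the thyroid hormone receptor TRβ2, a product of Thrb, and on its partner RXRγ, a product of Rxrg, while rod identity depends on the leucine zipper factor NRL. PRDM1 holds newborn photoreceptors away from the bipolar fate. Gngt2, Gnb3 and Pdc encode the γ subunit of the cone transducin, its β subunit and phosducin, a protein that binds those subunits.

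The label was checked against genes that the rule did not use. Levels are given as CPM, the UMIs of a gene per 1000000 UMIs of the class, and pairs of values are control first and mutant second. Otx2 was at 1252 and 1345 CPM in members, with a UMI in 99.1% and 98.3% of cells. Neurod1, a basic helix-loop-helix (bHLH) factor of young photoreceptors, was at 1485 and 1583 CPM and was detected in 98.8% and 97.5% of cells. In erythroid-rule cells, in which haemoglobin genes made up at least 20% of UMIs and which should lack Otx2, a UMI of Otx2 was seen in 2.56% and 3.22% of cells at median depths of 17662 and 17269 UMIs, against 7624 and 7183 UMIs in members. The cone opsin genes were at or near 0. Opn1mw, the medium-wave cone opsin, had 0 and 0 UMIs in members, Arr3, the cone arrestin, had 0 and 1, and Opn1sw, the short-wave cone opsin, had 7 and 24. Rcvrn, the recoverin gene of the rule, was listed at 0 and 0 UMIs, so membership rested on the 7 other rule genes. Myrf itself had 1 and 1 UMIs in members, and in these cells it cannot serve as a check of the deletion.

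The libraries held 13017 and 13880 barcodes with 132436812 and 135678970 UMIs, of which members carried 3046492 and 4302569. Markers of other cells were measured beside the members. Of the RPE markers, Rpe65 and Mlana were at 0, the latter by the rule, and the 6 genes together had 38 and 49 UMIs. Among the 5 amacrine markers Gad1 was at 0, and all 5 together had 22 and 50 UMIs. The 4 bipolar markers had 28 and 34 UMIs, the 4 immune markers 7 and 28, and the 3 endothelium markers 229 and 111, with every UMI of Cdh5 in 5 or fewer cells. The 7 ganglion markers together had 1555 and 2455 UMIs, most of them of Stmn2, a microtubule regulator of young neurons in general, which was detected in 72.9% and 70.4% of members. Pou4f2 was 0 by the rule, while Sncg had 16 and 226 UMIs and Isl1 6 and 75, of which the 5 richest mutant cells held 74.3% and 93.3%. The 4 horizontal markers had 1128 and 1223 UMIs, with Lhx1 at 0 by the rule and Onecut1 and Onecut2, which early cones also express, holding most of them. The 6 mesenchyme markers summed to 691 and 599 CPM, with Col1a1 in 17.6% and 27.9% of cells, and the 5 haemoglobin genes summed to 12436 and 14916 CPM. Haemoglobin sat in few cells. It made up at least 20% of UMIs in 3 control and 7 mutant members, and without these it made up 0.0902% and 0.0798% of the UMIs of the class. Scrublet marked 10 control and 32 mutant members as doublets, or 3.04% and 6.77%. The libraries shared 69 cell barcodes, none of them a member in both. The libraries also differed in sex. Y-linked UMIs were found in 0 control and 278 mutant members (58.8%), while 326 control and 130 mutant members had Xist UMIs and no Y-linked UMI. Main results are therefore also given for those Xist-only cells. The part of these other cells in the results was not tested.

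CRX and OTX2 bind a shared core, TAATCC, so this core and its reverse complement GGATTA were searched for in the RefSeq promoters (GRCm38.p6), each running from 250 bases before to 50 bases after a gene's start. The promoters below are shown because they carry the core and belong to genes that mark the members. The rule genes with a promoter in that set were 5 of 8, and 2 of them, Crx and Thrb, held the core. For Thrb it was in 1 of the 2 promoters listed, and which receptor form starts there was not examined. Of the 15 genes outside the rule that marked members best, listed further on, 11 had a promoter and 1 held the core. That gene is Rbp3, which encodes the retinoid-binding protein of the space around photoreceptors. Of all 32851 promoters, 7.06% held it on either strand, and of the 27025 genes they belong to, 8.14% had it in at least 1 promoter. The Crx promoter is at chr7:15879906-15880205 on the minus strand, that of Thrb at chr14:17660710-17661009 on the plus strand, and that of Rbp3 at chr14:33953753-33954052 on the plus strand. Each sequence reads 5′ to 3′ along the strand of its gene, and the capitals mark the core, 2 times in Crx and once in each of the others. A match of letters is a description and not a binding site.
Crx: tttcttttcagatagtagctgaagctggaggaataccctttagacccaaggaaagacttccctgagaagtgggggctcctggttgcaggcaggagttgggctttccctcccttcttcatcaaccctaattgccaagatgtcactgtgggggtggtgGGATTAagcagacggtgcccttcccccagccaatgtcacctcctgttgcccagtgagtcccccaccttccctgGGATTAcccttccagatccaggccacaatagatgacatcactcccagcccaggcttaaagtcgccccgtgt
Thrb: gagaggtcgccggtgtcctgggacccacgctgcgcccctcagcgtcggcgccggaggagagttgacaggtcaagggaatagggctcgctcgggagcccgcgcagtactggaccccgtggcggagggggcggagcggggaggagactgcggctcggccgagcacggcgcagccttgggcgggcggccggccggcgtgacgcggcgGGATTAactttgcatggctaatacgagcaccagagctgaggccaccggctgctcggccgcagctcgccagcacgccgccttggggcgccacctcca
Rbp3: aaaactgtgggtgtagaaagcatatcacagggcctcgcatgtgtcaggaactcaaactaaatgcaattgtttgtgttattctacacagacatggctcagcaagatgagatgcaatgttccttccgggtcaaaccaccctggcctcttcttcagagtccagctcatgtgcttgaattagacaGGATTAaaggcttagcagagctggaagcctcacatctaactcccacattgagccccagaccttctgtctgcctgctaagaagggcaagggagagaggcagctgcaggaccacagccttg

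The rule counted the rule genes with a UMI in each cell. Without a barred gene, 695 control and 948 mutant cells had 1 rule gene and 102 control and 162 mutant cells had 2, while 44 control and 60 mutant cells had 3, 41 control and 45 mutant cells had 4, 63 control and 101 mutant cells had 5, 101 control and 162 mutant cells had 6 and 80 control and 105 mutant cells had 7. The rule used these numbers, so their spread is a description. A barred gene kept out a further 67 control and 81 mutant cells, most often through Tfap2b (42 and 48 cells). The cells just outside the limit, with 2 rule genes, had 278 and 391 CPM of Otx2 and 298 and 418 CPM of Neurod1, at median depths of 13911 and 11833 UMIs. Those just inside, with 3, had 991 and 949 CPM of Otx2 and 1241 and 1176 CPM of Neurod1, at 9793 and 9403 UMIs.

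**Figure D1:**
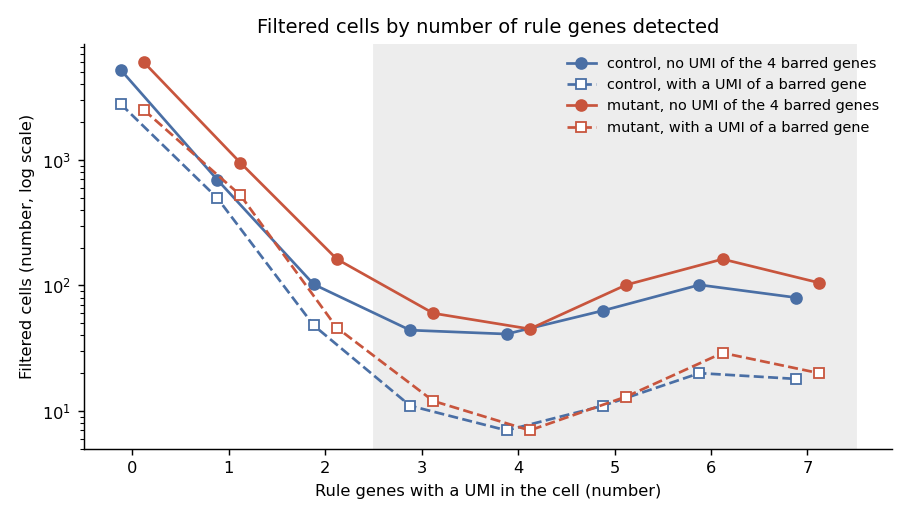
Filtered cells (number, log scale) by the number of rule genes with a UMI, for each library, with filled points for cells without and open squares for cells with a UMI of a barred gene. The grey band marks 3 or more rule genes, where the filled points are the members. The filled lines fall to 41 control and 45 mutant cells at 4 rule genes and stand at 101 control and 162 mutant cells at 6.

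Members with more rule genes had higher levels of photoreceptor genes outside the rule. The 22 photoreceptor structure genes, which build the outer segment, its cilium and the matrix around it, summed to 453, 917, 1275 and 1554 CPM in control members with 3, 4, 5 and 6 or more rule genes, and to 509, 929.5, 1439.7 and 1554 CPM in mutant members. The 21 synapse genes summed to 674, 1162, 1495 and 1839.8 CPM and 793, 1028, 1622 and 1849 CPM along the same order. The 18 cone genes summed to 59.99, 173, 275 and 505 CPM and 75.6, 149, 407 and 586 CPM. All 3 lists were more than 2-fold higher in members with 6 or more rule genes than in those with 3, in both libraries. The same order was seen in single genes. Cngb3, a subunit of the cone cyclic-nucleotide channel, stood at 20.7, 64.8, 101 and 160.1 CPM in the control and 21.4, 50.4, 144 and 162 CPM in the mutant. Cdhr1, a cadherin of the photoreceptor disc, stood at 37.2, 72.0, 138 and 184 CPM and 32.8, 76.7, 184 and 188 CPM.

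Neurogenic genes ran the other way. The 12 genes of that list, led by the proneural factor Atoh7, summed to 8450.4, 5319, 4383 and 2941 CPM in the control and 6020.1, 4700.1, 4320.2 and 3152 CPM in the mutant from 3 to 6 or more rule genes. Atoh7 alone, which is known for its part in the ganglion cell fate, was at 4547, 2541, 1874 and 835 CPM and 2959, 1888, 1729 and 964 CPM. The 20 fate factors, summed, stayed within a narrow band, at 5354, 5795, 6014 and 5537 CPM and 5116, 5527, 6561 and 5904 CPM. At 3 rule genes, where structure genes were lowest, Otx2 and Neurod1 were below their levels over all members. They were above those of the cells just outside the limit. The 25 genes of G2 and M phase summed to 1684, 1242, 882 and 1503 CPM and 2689, 2119.9, 1039 and 1484 CPM, highest at 3 rule genes and lowest at 5 in both libraries.

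The number of rule genes also depends on depth, and members with more of them were shallower. The median was 9793, 8402, 7956 and 6220 UMIs per control cell and 9403, 8322, 6864 and 6646 UMIs per mutant cell in the same order. With every member thinned to 2000 UMIs and the rule genes counted again, structure genes summed to 410, 1195, 1284, 2089 and 2327 CPM in control members with 0 or 1, 2, 3, 4 and 5 or more rule genes left, and to 583, 1113, 1567, 1913 and 2438 CPM in mutant members. Cone genes summed to 90, 246, 314, 621 and 701 CPM and 97.2, 155, 527, 628 and 1027 CPM, and neurogenic genes to 6680, 5288, 4843, 4000 and 3322 CPM and 5875, 5465, 3600, 3289 and 3109.6 CPM. The G2 and M phase genes summed to 2040, 627, 922, 403 and 299 CPM and 2118, 1331, 1140, 564 and 493 CPM. The orders of structure, cone and neurogenic genes from the lowest to the highest bin therefore held at equal depth.

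**Figure D2:**
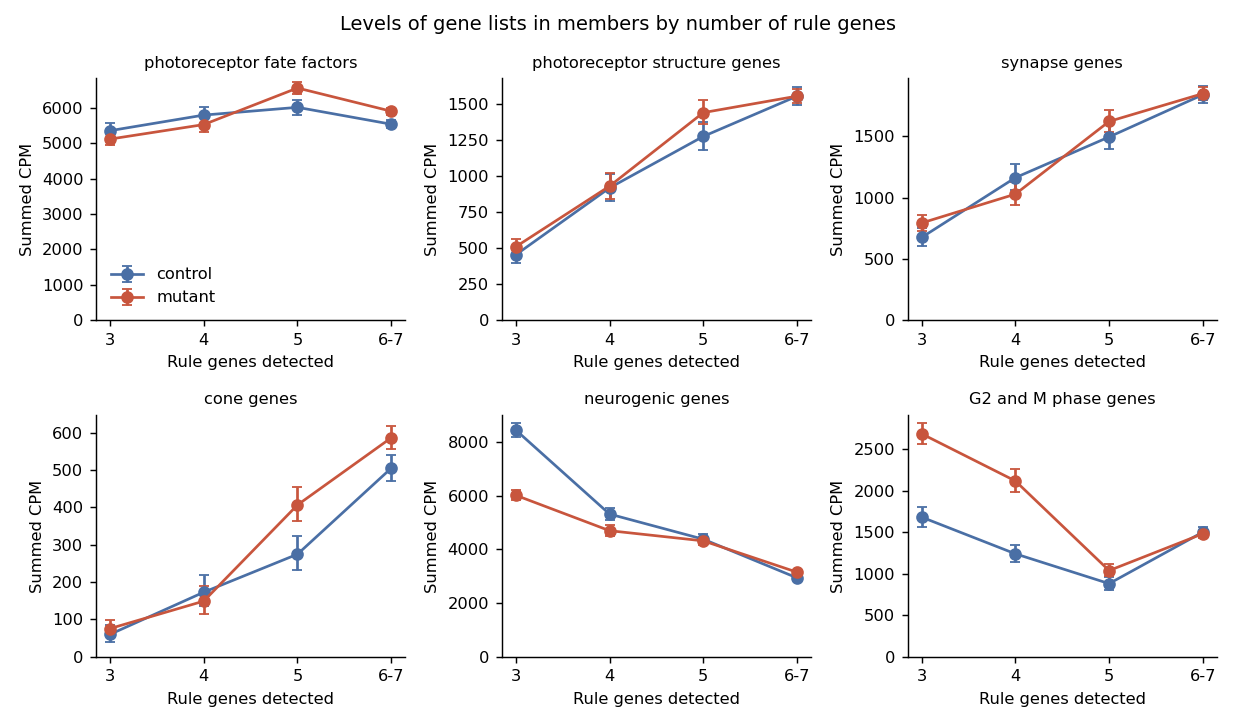
Summed CPM of 6 gene lists in members with 3, 4, 5 and 6 or 7 rule genes detected, for each library, with 95% counting intervals as bars. Structure, synapse and cone genes were highest in members with 6 or more rule genes (505 and 586 CPM for cone genes), and neurogenic genes were highest at 3 (8450.4 and 6020.1 CPM).

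Members were set beside 3 other classes of neural retina that were picked by simple rules on counts. Progenitor-rule cells had at least 4 of the 5 progenitor markers and no Atoh7, neurogenic-rule cells had Atoh7 and at least 2 of Neurog2, Dll1, Dll3, Hes6, Sstr2 and Gadd45a, and ganglion-rule cells had Pou4f2 and at least 3 of Isl1, Sncg, Stmn2, Rbpms and Ebf3. They held 2006 and 2678, 956 and 1453, and 516 and 625 cells. No class took a member, so cells with 3 or more rule genes and no barred gene were left out of all of them. Since rules on counts chose every class, these contrasts are descriptions. Against progenitor-rule cells, 1060 of 11806 genes tested were at least 2-fold higher in members in both libraries (8.98%) and 1116 were at least 2-fold lower (9.45%). Against neurogenic-rule cells, 774 of 10922 genes tested were at least 2-fold higher in members in both libraries (7.09%) and 643 were at least 2-fold lower (5.89%). Against ganglion-rule cells, 750 of 10670 genes tested were at least 2-fold higher in members in both libraries (7.03%) and 930 were at least 2-fold lower (8.72%).

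Otx2 and Neurod1 were lower in neurogenic-rule cells than in members but present, while Crx, Lhx4 and Cngb3 were far lower there. Members were kept out of that class. Its low levels of photoreceptor genes are therefore set in part by the choice of cells. Of the 20 fate factors, 17 had enough UMIs. In members 9 were at least 2-fold higher than in neurogenic-rule cells, beside 7.09% of all genes. Another 2, among them Olig2, were lower, beside 5.89% of all genes. Otx2 was 3.89 and 4.22 times its level there, where it stood at 322 and 319 CPM, and Neurod1 was 4.14 and 4.46 times. A UMI of Otx2 was found in 45.4% and 46.7% of neurogenic-rule cells. Crx, a rule gene, was at 7.22 and 11.9 CPM in neurogenic-rule cells against 380.1 and 374 in members. Lhx4, a LIM homeobox gene, was at 80.1 and 101 CPM in members and at 0.980 and 1.42 CPM in neurogenic-rule cells. Cngb3 was at 115 and 124 CPM against 0.178 and 0.354 CPM. Rorb, an orphan nuclear receptor, was at 1132 and 1161 CPM in members, 1409 and 1571 CPM in neurogenic-rule cells, 1011 and 1136 CPM in progenitor-rule cells and 476 and 574 CPM in ganglion-rule cells.

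Genes of the synapse were detected well before synapses form. Of 13 synapse genes with enough UMIs, 11 were at least 2-fold higher in members than in neurogenic-rule cells, beside 7.09% of all genes. The median log2 difference was 1.55 and 1.56, against 0.07 and 0.03 over all genes tested. Snap25, a member of the vesicle fusion complex, was at 263 and 314 CPM in members and 15.6 and 20.9 CPM in neurogenic-rule cells. Against ganglion-rule cells, which are themselves young neurons, 5 of 16 were higher, beside 7.03% of all genes, and 2 were lower. Among the higher ones was Cplx3, a complexin of ribbon synapses, at 152 and 168 CPM against 3.69 and 4.12 CPM. Structure genes gave 9 of 14 higher than in neurogenic-rule cells, beside 7.09% of all genes, and 1 lower. They gave 10 of 13 higher than in ganglion-rule cells, beside 7.03% of all genes. Of 24 cilium genes, whose products build and supply the cilium from which the outer segment grows, 23 had enough UMIs. Rpgrip1, Bbs1 and Bbs4, 3 of 23, were higher than in neurogenic-rule cells, beside 7.09% of all genes. That count is near the share, so nothing is read from it, and the median log2 difference was 0.35 and 0.39. The tubulin gene Tubb4b of the same list was lower, at 0.382 and 0.381 times its level there.

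Cell cycle genes were lower in members than in neurogenic-rule cells. All 25 G2 and M phase genes were at least 2-fold lower, as were 16 of 24 S phase genes, beside 5.89% of all genes. Against ganglion-rule cells none of either list was lower, and 2 of 25 and 2 of 22 were higher, counts close to the 7.03% of all genes, so nothing is read from them. Top2a, a topoisomerase of dividing cells, was at 137 and 178 CPM in members, 814 and 762 CPM in neurogenic-rule cells and 69.9 and 76.9 CPM in ganglion-rule cells. The anti-proliferative gene Btg1 was 3.57 and 3.88 times as high in members as in neurogenic-rule cells. Of 17 Notch genes with enough UMIs, 7 were lower in members than in neurogenic-rule cells, beside 5.89% of all genes, and Numbl, a Numb family gene, was higher, at 2.59 and 2.65 times its level there. Dll1 and Hes6, among those that were lower, had also been used to choose the neurogenic-rule cells. The others that were lower included the ligand gene Dll4, at 21.99 and 17.7 CPM against 64.3 and 58.4 CPM, and the effector gene Hes5, at 146 and 146 CPM against 960.0 and 1043 CPM. Of the 11 p53 target genes with enough UMIs, 5 were higher in members than in neurogenic-rule cells, beside 7.09% of all genes, among them Trp53inp1 at 57.8 and 55.3 CPM against 12.4 and 9.80 CPM.

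**Figure D3:**
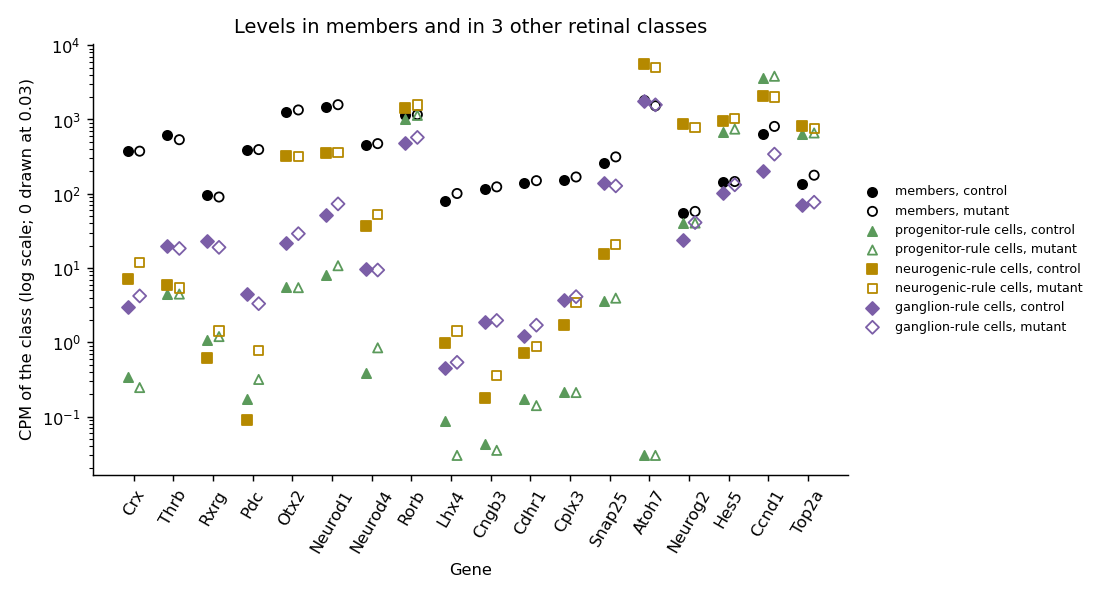
CPM (log scale) of 18 genes in members and in progenitor-, neurogenic- and ganglion-rule cells, with filled symbols for control and open symbols for mutant and values of 0 drawn at a fixed low value. Lhx4, Cngb3 and Cdhr1 stood far above the other classes in members, as did the rule gene Crx, whose level the choice of members fixed. Otx2 was graded, and Top2a lay between the 814 and 762 CPM of neurogenic-rule cells and the 69.9 and 76.9 CPM of ganglion-rule cells. Atoh7 is 0 in progenitor-rule cells by their rule.

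The genes outside the rule that marked members best were ranked by the smaller of the ratios to all other filtered cells in the 2 libraries. The first was Pgc, which encodes the protease precursor progastricsin of the stomach, at 69.3 and 98.8 CPM in members against 0.300 and 0.549 CPM in all other filtered cells. Gm4792, a predicted gene, was at 181 and 222 CPM in members against 1.01 and 1.42 CPM in all other filtered cells. Cdhr1 was at 138 and 150.1 CPM in members against 1.01 and 1.14 CPM in all other filtered cells, Lhx4 at 80.1 and 101 CPM in members against 0.584 and 0.788 CPM in all other filtered cells, and Rbp3 at 77.5 and 83.0 CPM in members against 0.446 and 0.700 CPM in all other filtered cells. The next in rank were A830036E02Rik, Epha8, Dnaic1, Platr17 and Cngb3, with smaller ratios from 86.7 down to 80.3. Epha8 encodes an Eph receptor and Dnaic1 an intermediate chain of the dynein of motile cilia. Fabp7, a fatty-acid-binding protein best known from glia and progenitors, had the highest level of the 15, at 1268 and 1666 CPM in members against 26.3 and 27.9 CPM in all other filtered cells, and a UMI in 66.3% and 72.9% of members. Cplx3, St6galnac5 and Neurod4 followed, with smaller ratios from 43.1 to 38.2. Between genotypes none of the 15 passed the limits used below, and their ratios of mutant to control ran from 0.984 for St6galnac5 to 1.43 for Pgc.

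Members made up a larger share of the mutant library when all cells were counted, and a similar share when neural retina was counted. They were 329 of 9722 cells, or 3.38% (3.03 to 3.76) in the control and 473 of 10708 cells, or 4.42% (4.04 to 4.82) in the mutant, a ratio of 1.31 (1.13 to 1.51). Of neural retina cells, taken as members together with progenitor-, neurogenic- and ganglion-rule cells, members were 329 of 3807 cells, or 8.64% (7.77 to 9.58) and 473 of 5229 cells, or 9.05% (8.28 to 9.86), a ratio of 1.05 (0.907 to 1.21). Mesenchyme-rule cells, with at least 3 of the 6 mesenchyme markers, made up 36.6% of control cells and 28.2% of mutant cells. With every cell thinned to 2000 UMIs before the rule was applied, members were 242 of 9722 cells, or 2.49% (2.19 to 2.82) and 349 of 10708 cells, or 3.26% (2.93 to 3.61), a ratio of 1.31 (1.11 to 1.55). Among Xist-only cells the ratio of shares of all cells was 1.12 (0.905 to 1.37). The make-up of the members by number of rule genes was close between the libraries: 13.4% (9.89 to 17.5) and 12.7% (9.82 to 16.0) had 3, and 55.0% (49.5 to 60.5) and 56.4% (51.8 to 61.0) had 6 or more.

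Between the genotypes, 9708 genes had at least 50 UMIs in members over both libraries. A gene was called when its CPM differed by at least 1.5-fold with a counting interval clear of 1, with no adjustment for the number of genes. By this rule 172 genes (1.77%) were called higher in mutant members and 247 (2.54%) lower, and the median log2 ratio over all of them was -0.04. Most lists below hold 5 to 25 tested genes, so that a count of 0 or 1 called is close to these shares, and nothing is read from such counts. Of the 7 detected rule genes 1, Gngt2, was called. The rule used all of these genes, so their levels in members are descriptions. Crx was at 380.1 CPM in control and 374 CPM in mutant members, a ratio of 0.985 (0.913 to 1.06), and Prdm1 was at 448 and 446 CPM, a ratio of 0.997 (0.929 to 1.07). Thrb was at 609 and 535 CPM, a ratio of 0.877 (0.825 to 0.933), and Rxrg at 96.8 and 90.4 CPM, a ratio of 0.934 (0.801 to 1.09). Pdc was at 394 and 393 CPM and Gnb3 at 221 and 259 CPM, ratios of 0.999 (0.927 to 1.08) and 1.18 (1.07 to 1.30). In members chosen by UMIs in 3 or more of the other rule genes, a choice added after the data were seen, the ratio was 0.987 (0.911 to 1.07) for Crx, 1.03 (0.952 to 1.11) for Prdm1, 0.899 (0.844 to 0.957) for Thrb and 0.924 (0.791 to 1.08) for Rxrg. It was 1.01 (0.937 to 1.09) for Pdc and 1.20 (1.09 to 1.32) for Gnb3.

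Gngt2 was the rule gene past 1.5-fold. This gene (ENSMUSG00000038811, chr11:95837216-95845734 in GRCm38, GENCODE M21) was at 681 CPM in control and 1239 CPM in mutant members, 2075 and 5330 UMIs, a ratio of 1.82 (1.73 to 1.91). The median member had 5 UMIs of it in the control and 10 in the mutant, and the 5 richest cells held 6.17% and 3.64% of its UMIs, so the difference did not rest on a few cells. Members chosen by the other rule genes alone, a choice that no longer used Gngt2, gave 1.89 (1.79 to 1.99), and Xist-only members gave 2.43 (2.28 to 2.60). In neurogenic-rule cells Gngt2 was at 4.10 and 4.19 CPM and in ganglion-rule cells at 5.14 and 12.4 CPM. Its ratio was 1.02 (0.696 to 1.52) in neurogenic-rule cells, 0.874 (0.589 to 1.30) in progenitor-rule cells and 2.42 (1.72 to 3.46) in ganglion-rule cells. In all other filtered cells, which include cells with 1 or 2 rule genes and cells kept out for a barred gene, it was 1.41 (1.30 to 1.52). Gngt2 overlaps the gene Abi3 on the opposite strand, and Abi3 had 25 and 15 UMIs in members.

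**Figure D4:**
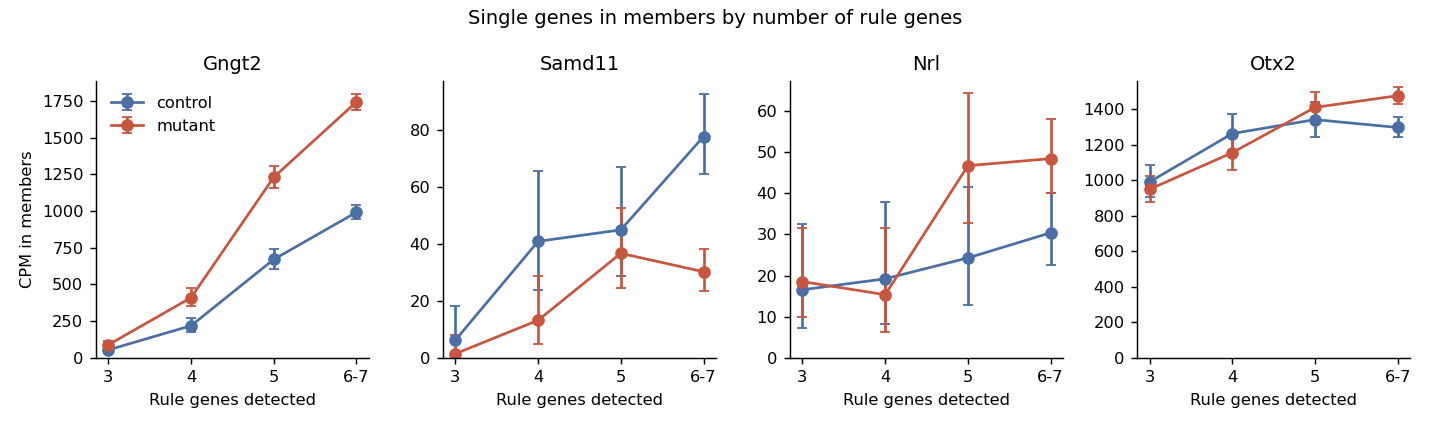
CPM of Gngt2, Samd11, Nrl and Otx2 in members with 3, 4, 5 and 6 or 7 rule genes, for each library, with 95% counting intervals as bars. Gngt2 is itself among the rule genes counted, so its levels by that number are set in part by the rule. It was at 992 and 1745 CPM and Samd11 at 77.6 and 30.2 CPM in members with 6 or more rule genes, control first.

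Of the 20 photoreceptor fate factors, 18 were tested, 1 was called higher and 1 lower, and the median log2 ratio was 0.08 (-0.11 to 0.22), where the range after a list's median runs between the medians of its genes' lower and upper interval bounds. The most abundant were Neurod1, with a ratio of 1.07 (1.03 to 1.11), Otx2, at 1.07 (1.03 to 1.12), and Rorb, at 1.03 (0.982 to 1.07). Neurod4, a bHLH factor, followed at 1.05 (0.976 to 1.12). The gene called lower was Onecut1, a cut homeobox gene of horizontal cells and early cones, at 36.1 and 23.2 CPM with a ratio of 0.644 (0.486 to 0.852). It was detected in 26.1% and 15.9% of members. The call was lost under 7 of 16 alternatives, and the log2 ratio among Xist-only members was -0.28 (-0.90 to 0.31) against -0.64. Its relative Onecut2 was at 327 and 254 CPM, a ratio of 0.777 (0.712 to 0.847), short of the limit. The gene called higher was Olig2, at 4.595 and 11.4 CPM with 14 and 49 UMIs, but the 5 richest mutant cells held 71.4% of its UMIs. Esrrb and Neurod2 were at 0 in both libraries.

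Of the 18 cone genes 7 were tested, none was called, 6 were higher in the mutant and 1 lower, and the median log2 ratio was 0.32 (-0.08 to 0.58), beside -0.04 over all genes. The median was 0.0624 in members with a mitochondrial share of at most 5%, where the log2 ratio of Gnat2 was also 0.0624, and 0.63 among Xist-only members. Ccdc136 was at 102 and 132 CPM, a ratio of 1.29 (1.12 to 1.49), and Gnat2, the cone transducin α subunit, at 65.0 and 81.3 CPM, a ratio of 1.25 (1.05 to 1.498). Cngb3 was at 115 and 124 CPM, a ratio of 1.08 (0.943 to 1.24). Pde6c, the catalytic subunit of the cone phosphodiesterase, was at 18.1 and 24.6 CPM, a ratio of 1.36 (0.976 to 1.93). Among Xist-only cells the ratios were 1.74 (1.44 to 2.09) for Ccdc136 and 1.70 (1.34 to 2.15) for Gnat2, and the median log2 ratio of the list was 0.63 (0.31 to 0.98).

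Of 16 rod genes 5 were tested, 1 was called higher and 1 lower, beside 1.77% and 2.54% of all genes. The median log2 ratio was -0.14 (-0.40 to 0.26), with 2 genes above 0 and 3 below. The 2 called genes, Nrl and Samd11, held a minor part of the 1222 and 1494 UMIs of the list. Nrl was at 25.6 CPM in control and 39.7 CPM in mutant members, a ratio of 1.55 (1.18 to 2.06), with 78 and 171 UMIs, and was detected in 18.2% and 25.8% of members. With cells of the barred genes kept, its log2 ratio was 0.45 against 0.63, short of 1.5-fold, and the call was lost under 2 of 16 alternatives. Samd11, a sterile-alpha-motif protein of photoreceptor nuclei (chr4:156246966-156255657, GRCm38), was at 55.5 CPM in control and 24.9 CPM in mutant members, a ratio of 0.448 (0.349 to 0.574), with 169 and 107 UMIs, and was detected in 26.4% and 15.2% of members. Among members with 6 or more rule genes the ratios were 1.59 (1.13 to 2.28) for Nrl and 0.389 (0.287 to 0.525) for Samd11. Among Xist-only members they were 1.93 (1.34 to 2.78) and 0.528 (0.345 to 0.782). Nr2e3, the orphan receptor that acts below NRL, had 0 and 2 UMIs. In mesenchyme-rule cells, which should lack Nrl, it was detected in 0.169% and 0.298% of cells at median depths of 14197 and 14184 UMIs.

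None of 15 photoreceptor structure genes tested was called, with a median log2 ratio of 0.10 (-0.18 to 0.34). Unc119, a lipid-binding trafficking protein and the most abundant of them, had a ratio of 1.03 (0.961 to 1.10), Cdhr1 one of 1.09 (0.964 to 1.24), and Abca4, a retinoid flippase, one of 0.934 (0.812 to 1.07). None of 15 synapse genes was called, with a median of -0.09 (-0.33 to 0.26). Cplx2 was at 283 and 310.3 CPM and Snap25 at 263 and 314 CPM, ratios of 1.10 (1.01 to 1.20) and 1.19 (1.09 to 1.30). Slc17a6, the glutamate transporter gene of young neurons, was at 52.5 and 35.3 CPM, a ratio of 0.673 (0.535 to 0.845), just short of the limit. Of 20 cilium genes 1 was called, and the median of the list was 0.01 (-0.42 to 0.35). Tubb4b, a tubulin, had a ratio of 1.05 (0.961 to 1.16) and Arl3, a small GTPase, one of 0.933 (0.834 to 1.04).

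Thyroid hormone and retinoid receptor genes gave 1 call among 12 tested. Dio3, the enzyme that inactivates thyroid hormone, was at 8.21 and 15.6 CPM with 25 and 67 UMIs, a ratio of 1.90 (1.18 to 3.14). It was present in 4.26% and 6.98% of members, and among Xist-only members its ratio was 0.232 (0.0267 to 0.931). The corepressor gene Ncor1 was at 244 and 225 CPM and Thra, the other thyroid hormone receptor gene, at 81.4 and 83.0 CPM, ratios of 0.921 (0.836 to 1.01) and 1.02 (0.864 to 1.20). The median of the list was 0.05 (-0.28 to 0.42).

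Of 14 Notch genes none was called, with a median log2 ratio of -0.19 (-0.41 to 0.22). The most abundant, Hes6, had a ratio of 1.02 (0.955 to 1.09). Of 12 neurogenic genes 1 was called, Penk, the proenkephalin gene, with 29 and 118 UMIs, of which the 5 richest mutant cells held 68.6%. Atoh7 was at 1839 and 1528 CPM, a ratio of 0.831 (0.802 to 0.861), and its ratio in neurogenic-rule cells was 0.878 (0.869 to 0.887). Sox4, a factor of young neurons, had a ratio of 0.961 (0.912 to 1.01), and Btg2, an anti-proliferative gene, one of 0.999 (0.948 to 1.05). Progenitor markers gave no call among 5, with a median of 0.00 (-0.19 to 0.18).

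Cell cycle genes had no direction that held under every alternative. Of 22 S phase genes 19 were higher in the mutant and none was called, with a median log2 ratio of 0.23 (-0.16 to 0.60). Of 25 G2 and M phase genes 22 were higher, 1 was called higher, the kinase gene Aurka, and 1 lower, the checkpoint gene Bub1, with a median of 0.22 (-0.12 to 0.55). Aurka lost the call under 6 of 16 alternatives and Bub1 under 3. With doublets removed, the median log2 ratio of S phase genes was -0.0881 and the median log2 ratio of G2 and M phase genes -0.0954. Among Xist-only members they were 0.0520 and -0.63. These UMIs sat in few cells. Ube2c, a mitotic ubiquitin-conjugating enzyme, was detected in 18.8% and 22.6% of members at 129.7 and 190.4 CPM, and the 5 richest cells held 48.4% and 35.9% of its UMIs. After every member was thinned to 2000 UMIs, G2 and M phase genes summed to 739 CPM (674 to 807) and 985 CPM (923 to 1051). Ccnd1, the D cyclin of retinal progenitors, was at 637 and 807 CPM, a ratio of 1.27 (1.20 to 1.34), and the log2 ratio of Ccnd1 turned from 0.34 to -0.18 with doublets removed. The Cip/Kip inhibitor gene Cdkn1c was at 481 and 326 CPM, a ratio of 0.678 (0.629 to 0.730), and in progenitor-rule cells its ratio was 0.792 (0.764 to 0.821). A single control member held 237 of its 1464 UMIs. The log2 ratio of Cdkn1c was -0.56 in all members, -0.25 without the 5 richest cells of each library and 0.0954 in members with at most 5% mitochondrial UMIs. None of 13 cell cycle exit genes was called, with a median of 0.00 (-0.43 to 0.29).

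None of 11 p53 target genes was called, with a median log2 ratio of -0.09 (-0.42 to 0.30), and Bax, a pro-death member of the Bcl-2 family, had a ratio of 0.941 (0.857 to 1.03). Of 9 dissociation stress genes 2 were called higher, beside 1.77% of all genes. The median log2 ratio of the list was 0.07 (-0.19 to 0.37), with 5 genes above 0 and 4 below. The called genes were Fosb, with 15 and 40 UMIs, and Dusp1, at 16.4 and 28.1 CPM. Fosb lost the call under 4 of 16 alternatives and Dusp1 under 2. The abundant Hspa8 and Hsp90aa1, both chaperone genes, had ratios of 0.938 (0.902 to 0.975) and 0.922 (0.882 to 0.963). Of 18 glycolysis genes 1 was called lower, Hk2, with 30 and 22 UMIs, and the median was -0.01 (-0.16 to 0.13). The call of Hk2 was lost under 6 of 16 alternatives. Gapdh and Pkm, the most abundant, had ratios of 1.06 (1.02 to 1.10) and 0.998 (0.956 to 1.04). Of 9 genes of the dorsoventral axis 1 was called higher, Aldh1a3, a ventral enzyme of retinoic acid synthesis, at 24.3 and 36.5 CPM. The call of Aldh1a3 was lost under 9 of 16 alternatives, and its ratio among Xist-only members was 0.588 (0.314 to 1.03). Of 7 genes listed as dependent on MYRF, Myrf included, 2, Tmem98 and Gdf11, had enough UMIs, and their ratios were 0.939 (0.638 to 1.39) and 1.04 (0.782 to 1.38).

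**Figure D5:**
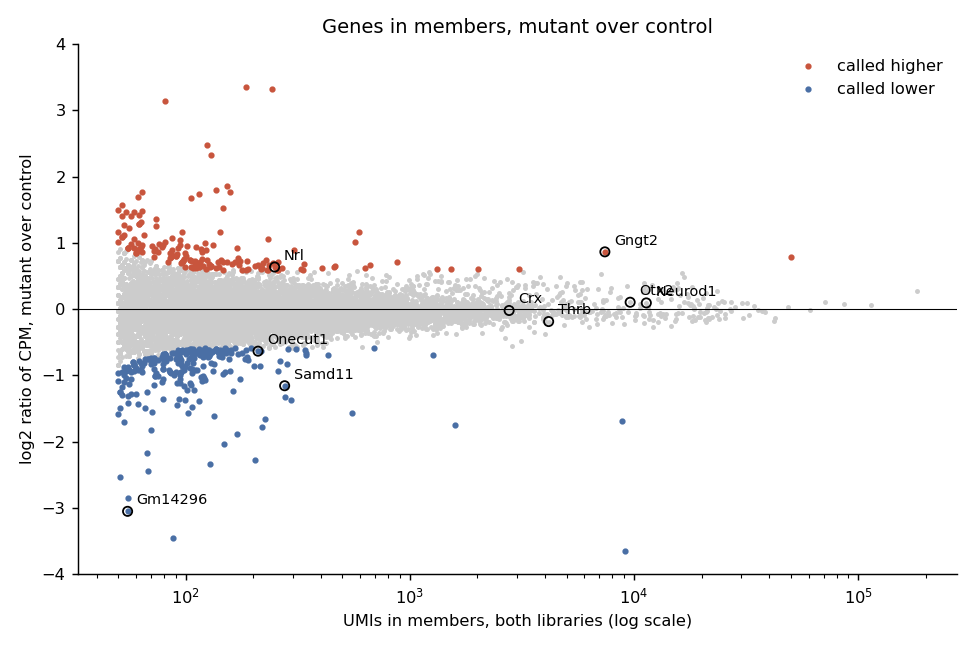
Log2 ratio of CPM in members, mutant over control, against the UMIs of each gene in both libraries (log scale), with genes called higher in red, genes called lower in blue and other genes in grey. Apart from haemoglobin genes and Xist, Gngt2, at 2075 and 5330 UMIs, lies furthest to the right of the 172 genes called higher and the 247 called lower. The plot leaves out 15 genes beyond its vertical range.

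The largest ratios among all called genes, leaving out mitochondrial, haemoglobin, Xist and Y-linked genes and those with at least 50% of their UMIs in 5 cells, belonged to scarce genes. The 10 highest included Rpl36a-ps1, Nrxn2, Enpp5, Sugct, Chst10, Skap2, Dennd4b, Setd1a and Cenpw, with ratios from 2.42 to 2.08 and control counts of 12 to 59 UMIs. Enpp5, an ectonucleotidase, had 23 and 73 UMIs, a ratio of 2.25 (1.39 to 3.76), and Cenpw, a kinetochore protein, had 59 and 173 UMIs, a ratio of 2.08 (1.54 to 2.84). Rpl36a-ps1 is named as a pseudogene of a ribosomal protein gene but listed as protein coding in the annotation, and reads could be shared between such copies, so its count is uncertain. Of these 10 genes 9 fell short of 1.5-fold or had an interval reaching 1 under at least 1 of 16 alternatives, while Cenpw kept both limits under each. With 2 or more rule genes the log2 ratio of Skap2 was 0.18 and that of Setd1a 0.47, that of Nrxn2 was 0.49 with cells of the barred genes kept, and that of Dennd4b 0.16 at a mitochondrial share of at most 5%.

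The 10 lowest were Gm14296, Gm14305, Gm6710, Mid1, Mtcp1, Pop1, Samd11, Irx5, Nabp1 and Fam124a, with ratios from 0.121 to 0.463. Of these 7 fell short of 1.5-fold or had an interval reaching 1 under at least 1 alternative, and Gm14296, Pop1 and Samd11 under none. The limit of at least 100 UMIs was not applied in that count. Gm14296 and Pop1, the latter with 42 and 25 UMIs, fall short of it. The log2 ratio of Nabp1 was -0.19 after thinning, and those of Gm14305 and Gm6710 were -0.55 and -0.57 among Xist-only members. Gm14296, Gm14305 and Gm6710 were also lower in mutant progenitor-, neurogenic- and ganglion-rule cells. Gm14296 had 47 and 8 UMIs in members, a ratio of 0.121 (0.0492 to 0.257), and a ratio of 0.217 (0.193 to 0.242) in all other filtered cells. The ratios there were 0.251 (0.229 to 0.275) for Gm14305 and 0.406 (0.375 to 0.441) for Gm6710. These 3 predicted genes lie on chromosome 2, and reads could be split between related copies. Mid1, an X-linked ubiquitin ligase gene, had a ratio of 0.387 (0.249 to 0.594) in members and 0.562 (0.530 to 0.597) elsewhere. Among Xist-only members its log2 ratio was -0.88 (-1.90 to 0.02), where the call was lost. For Samd11 the ratio in members was 0.448 (0.349 to 0.574), and the 152 and 173 UMIs in all other filtered cells gave 1.12 (0.893 to 1.40). Fam124a had 55 and 36 UMIs in members, a ratio of 0.463 (0.296 to 0.718), and 0.919 (0.785 to 1.08) in all other filtered cells. In neurogenic-rule cells, with 37 and 34 UMIs, its ratio was 0.609 (0.371 to 0.997), also past the limits.

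Some of the calls were shared across the library. Of the 172 genes called higher, 166 had at least 50 UMIs in neurogenic-rule cells and 24 of these (14.5%) passed the same limits there, against 1.85% of all genes tested in that class. Of the 247 called lower, 27 of 240 (11.2%) did, against 1.36%. The shares that passed were 9.70% and 13.1% in progenitor-rule cells (against 1.56% and 1.39% of all genes tested there), 13.3% and 10.0% in ganglion-rule cells (against 2.18% and 1.30% of all genes tested there), and 15.1% and 10.1% in all other filtered cells (against 2.89% and 3.17% of all genes tested there). Among called genes with at least 400 UMIs, a limit set after the values were seen, Snrpg, a core protein of spliceosomal particles, was at 320.4 and 488 CPM in members, a ratio of 1.52 (1.41 to 1.64), and 1.37 (1.33 to 1.41) in neurogenic-rule cells. Rps27rt, a retrotransposed copy of a ribosomal protein gene, had ratios of 2.01 (1.66 to 2.44) and 2.18 (1.97 to 2.43). For Gngt2 the pair was 1.82 (1.73 to 1.91) and 1.02 (0.696 to 1.52), beside the 2.42 (1.72 to 3.46) of ganglion-rule cells. Itm2a, a membrane protein gene, was at 222 and 137 CPM in members, a ratio of 0.618 (0.553 to 0.691), 0.860 (0.827 to 0.896) in neurogenic-rule cells and 1.79 (1.65 to 1.94), the other direction, in ganglion-rule cells. Elavl2, a neuronal RNA-binding protein gene, was at 75.2 and 46.5 CPM, a ratio of 0.618 (0.509 to 0.751), 0.760 (0.648 to 0.892) in neurogenic-rule cells and 1.11 (1.07 to 1.16) in all other filtered cells. The part of library preparation in these differences cannot be told apart from that of the genotype.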

How the data were processed

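The authors made single-cell libraries from e15.5 eye cups, 1 per genotype with 3 eye cups pooled in each, and deposited raw UMI counts per gene and barcode. Per the labels, reads were aligned to mm10 with Cell Ranger 7.1.0 (the matrix header names software 3.1.0). The study's methods also name Seurat 4.1.1 and a removal of cells above 2000 UMIs, which was not followed here, since the rule needs at least that many (barcodes under 2000 UMIs numbered 2722 and 2689). Members and gene lists were chosen with earlier results of these data known. Counts were summed over the members of each library and scaled to CPM. Shares have Clopper-Pearson intervals, CPM exact Poisson intervals and ratios exact conditional binomial intervals, all at 95%. Where a count was 0, a ratio used a floor of 3 counts. Thinning drew 2000 UMIs per cell without replacement. Doublets were kept, and an alternative removed those called by Scrublet (scanpy 1.11.5). The computations used numpy 2.4.6, scipy 1.17.1 and pandas 2.3.3 and were tested on simulated data. Named genes were those of the rule and the lists, the 15 best markers outside the rule (200 or more UMIs per library), the 10 highest and 10 lowest ratios among called genes with under 50% of UMIs in 5 cells, and promoters holding the core. The alternatives changed the filters, the rule, the depth, the scale, the call limits, the sex of the cells and the denominator of shares. For single genes the limits on UMIs per gene were not applied, so those alternatives could not lose a call. The alternative that took the mean of per-cell CPM kept the interval of the main ratio. Results for some genes are not reported here.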

Additional observations from a re-analysis of the deposited data

How the results depend on the processing

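The ratio of member shares was 1.05 of neural retina cells and 1.12 among Xist-only cells, against 1.31 of all cells. Genes called higher numbered 98 with at least 100 UMIs and 55 at 2-fold, against 172. Genes called lower numbered 446 with 2 or more rule genes, 482 with cells of the barred genes kept, 378 among Xist-only cells, 128 with at least 100 UMIs, 111 once the 5 richest cells per gene and library were left out and 72 at 2-fold, against 247. Centring ratios on the median of all genes gave 207 higher and 200 lower. The median log2 ratio of cone genes was 0.63 among Xist-only cells and 0.0624 at a mitochondrial share up to 5%, against 0.32, and that of fate factors stayed between 0.02 and 0.21 under every alternative. Of the 172 and 247 genes called, 53 and 101 were also called among Xist-only cells and 56 and 69 after thinning, and 58 and 43 at a mitochondrial share up to 5%. Among called genes, signs turned, in log2, in Xist-only cells for Aurka (-0.38), Olig2 (-0.27), Dio3 (-2.11), Penk (-0.51), Aldh1a3 (-0.77), Isl1 (-0.0479) and Hbb-bs (-4.03), after thinning for Olig2 (-0.77) and Aldh1a3 (-0.26), at a mitochondrial share up to 5% for Fosb (-0.22) and for the log2 ratio of Aldh1a3 (-0.0816), with 4 or more rule genes for Hbb-y (0.0944), and without the 5 richest cells for Kdr (0.16). Removing cells rich in haemoglobin, an alternative added after the data were seen, turned Hbb-bs (-0.34) and Hbb-y (0.0894). Of values not called, the median log2 ratio of rod genes (0.54), the median log2 ratio of G2 and M phase genes (-0.63), Top2a (-0.62) and Ube2c (-0.0590) were among those that turned in Xist-only cells. The log2 ratio of Neurod1 (-0.13) turned at a mitochondrial share up to 5%, and the log2 ratio of Atoh7 (0.11) with 2 or more rule genes. The causes were not tested. No paired analysis was possible because each genotype had 1 library. With 1 library per genotype the intervals hold counting error alone, and genes under 50 UMIs were not compared.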
